A study of Mus musculus with 3 samples.

Results

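The 7 genes described here, C1qa, C1qb, C1qc, Fcer1g, Tyrobp, Mrc1 and F13a1, are genes of macrophages and of the complement system. They were chosen by name from a panel of 296 genes whose RNA molecules were counted in place, cell by cell, in sections of mouse embryos. C1qa, C1qb and C1qc encode the A, B and C chains of C1q, the recognition molecule that starts the classical complement pathway, and in tissues most C1q is made by macrophages. Fcer1g and Tyrobp encode the FcR gamma chain and DAP12, small membrane adaptors that carry activating motifs and pass on signals from receptors of myeloid cells. Mrc1 encodes the mannose receptor CD206, an endocytic lectin of many tissue macrophages and of liver sinusoidal endothelium, and F13a1 encodes the A subunit of coagulation factor XIII, a transglutaminase that cross-links fibrin. In the embryo, yolk sac progenitors and later the fetal liver give rise to macrophages that settle in all organs, and those of the brain, the microglia, are known for low Mrc1 once they are inside the tissue.

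All embryos were wild type, and each section was cut from a whole embryo. The groups were 2 ages, counted in days of embryonic development: E9.5, with 2 sections, and E15.5, with 1 section and so no replicate. The method was MERFISH, which reads each RNA species through a barcode built up over rounds of imaging, run on the Vizgen MERSCOPE platform, and 19 blank codes that belong to no gene give the level of false reads. A cell entered when its panel counts came to 10 or more, leaving 830 cells and 68572 counts in E9.5 section 1, 6334 cells and 1034730 counts in E9.5 section 2, and 195915 cells and 21227345 counts at E15.5, with medians of 61, 128 and 84 counts per cell. No cell identifier was shared between sections. Defining macrophage receptors such as Csf1r and Cx3cr1 were not on the panel, so the cells were read through these 7 genes and the genes found beside them. A large part of both E9.5 sections had a low share of the broadly expressed gene Gnas, and results at E9.5 are given with and without these areas.

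The 3 C1q genes lie next to each other on chromosome 4 in the order C1qb, C1qc and C1qa, with 0 annotated genes between them. RefSeq (GRCm38.p6) gave an upstream window for 5 of the 7 members, C1qb, C1qc, Fcer1g, Mrc1 and F13a1, the last with 2 starts. The 250 bases before the start are shown for C1qb and C1qc, the pair with the highest joint detection over that expected, and for Mrc1, the member whose share of all counts differed most between neural and other regions. Capitals mark the letters GAGGAA on either strand (TTCCTC where the match is on the reverse strand), the core of the PU box bound by the myeloid factor PU.1.

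C1qb, chr4:136886201-136886450, minus strand: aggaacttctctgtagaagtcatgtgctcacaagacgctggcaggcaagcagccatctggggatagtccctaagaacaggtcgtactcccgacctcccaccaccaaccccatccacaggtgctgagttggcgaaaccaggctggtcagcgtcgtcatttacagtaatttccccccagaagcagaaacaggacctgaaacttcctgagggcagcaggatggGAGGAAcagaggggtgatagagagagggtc
C1qc, chr4:136892915-136893164, minus strand: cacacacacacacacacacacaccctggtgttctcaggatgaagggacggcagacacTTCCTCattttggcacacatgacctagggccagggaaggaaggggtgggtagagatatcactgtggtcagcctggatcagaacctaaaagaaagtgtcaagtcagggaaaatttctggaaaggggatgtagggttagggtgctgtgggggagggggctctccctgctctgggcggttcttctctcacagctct
Mrc1, chr2:14229164-14229413, plus strand: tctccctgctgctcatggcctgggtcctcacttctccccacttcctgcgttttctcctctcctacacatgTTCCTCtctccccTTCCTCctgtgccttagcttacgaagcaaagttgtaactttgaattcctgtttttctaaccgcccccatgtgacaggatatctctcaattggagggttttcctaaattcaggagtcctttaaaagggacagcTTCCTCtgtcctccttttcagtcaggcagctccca

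The match in C1qb began 30 bases and that in C1qc 193 bases before the start, and Mrc1 held 3. Of the 6 windows of the members 4 held the letters, against 23.3% of 32851 windows of the same length, and the window of Fcer1g and 1 of those of F13a1 held none. A match is a description of letters and not a site.

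In the E15.5 section all 7 members were detected in the same cells far more often than depth alone gave. C1qa was counted 8908 times, C1qb 8238, C1qc 10440, Fcer1g 5696, Tyrobp 6752, Mrc1 32723 and F13a1 38641 times. These sums placed the genes from rank 105 (F13a1) to rank 248 (Fcer1g) among the 296 panel genes. The mean blank code held 3385 counts and the highest 9533. F13a1 stood at 4.05 times and Mrc1 at 3.43 times the highest blank code, C1qc at 1.09 times, and the sums of C1qa (0.934), C1qb (0.864), Tyrobp (0.708) and Fcer1g (0.598) lay below it. C1qa, C1qb and Tyrobp exceeded 18 of the 19 codes and Fcer1g 17.

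The joint detection was measured as the number of cells with a count of both genes over the number given by chance within deciles of depth, where depth is the cell's count of the other 289 genes. All 21 pairs of members had a ratio of at least 2, and the background was 0.816% of the 43639 panel pairs that were not both members. The median ratio of the 21 pairs was 3.73, against 1.03 over those other pairs, 1.14 over pairs of blank codes and 1.16 over pairs of a member with a blank code. C1qb and C1qc, subunits of the same protein, had the highest ratio, 6.28, with 1613 joint cells against 257 expected. C1qb with Fcer1g followed at 6.12, C1qc with Fcer1g at 5.02 and C1qa with C1qb at 4.87. The lowest were Tyrobp with F13a1 at 2.12 (1347 cells against 636) and C1qa with F13a1 at 2.31. Tyrobp and Fcer1g, the adaptors, shared 802 cells against 199 expected, a ratio of 4.03. Mrc1 and F13a1 shared the most cells of any pair, 3418, but with a ratio of 2.76, since both were also detected in many cells without another member. When a gene had to have at least 2 counts in a cell to be called detected, the ratios grew to a range of 13.03 to 55.7.

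The same pattern stood out in the number of members per cell. Of the 195915 kept cells at E15.5, 153609 had no member, 32938 had 1, 5795 had 2, 1563 had 3, 845 had 4, 597 had 5, 377 had 6 and 191 had all 7. A count of at least 3 members was met by 3573 cells, 1.82% (1.77 to 1.88%, exact Clopper-Pearson 95% interval), against 759 expected if members fell independently within depth deciles. At least 5 members were found in 1165 cells against 2.14 expected. For the 19 blank codes the number of cells with at least 3 was 1706 against 1303 expected, a ratio of 1.31. Intervals here and below cover counting error only and say nothing about other embryos.

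**Figure D1:**
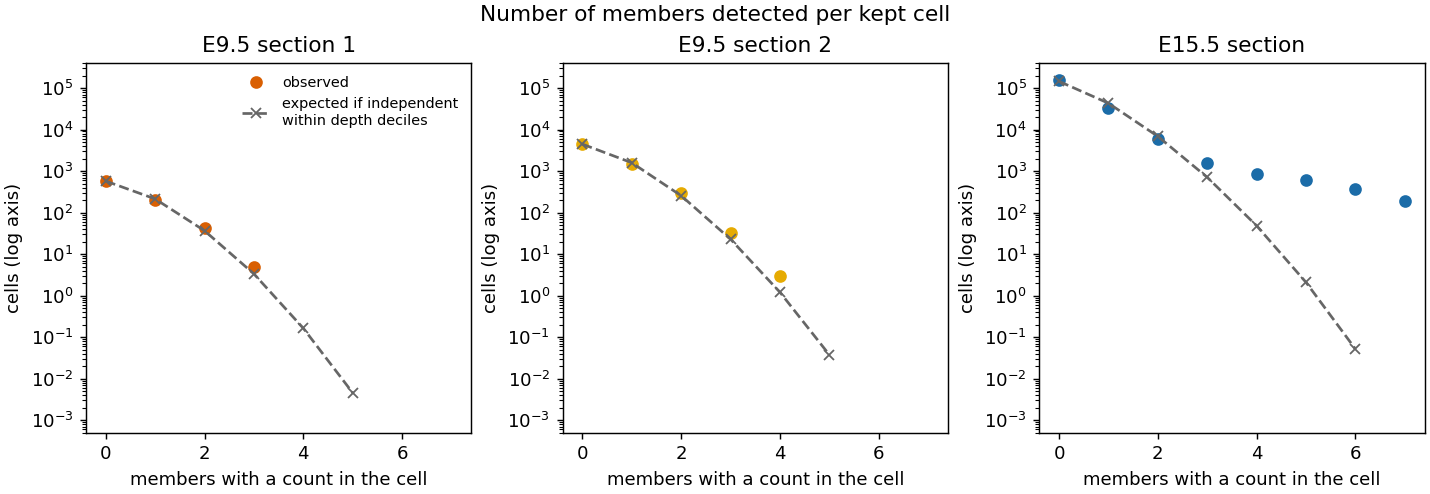
Kept cells (y axis, log scale) by the number of the 7 members with a count (x axis), in each section; points are observed cells and crosses the number expected if members fell independently within deciles of depth. At E15.5 the observed numbers leave the expected line from 3 members upward, to 191 cells with all 7, while both E9.5 sections stay near the line and hold no cell with 5 or more.

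Each member was detected more often the more of the others were present. C1qb was found in 1.52% of cells with none of the other members and in 83.3% of the 660 cells with at least 5 of them. C1qc went from 2.43% to 83.2%, C1qa from 2.71% to 64.8% and Fcer1g from 1.39% to 59.7%. Tyrobp rose least, from 2.22% to 45.9%. Mrc1 went from 4.08% to 89.6%, and its mean from 0.0482 to 15.45 counts per cell. F13a1 went from 6.28% to 74.7% and from 0.0806 to 11.3 counts. Cells with more members were also larger and deeper: the median volume was 604 cubic micrometres with 0 members and 1052 with 7, and the median count of other genes 74 and 183. Without cells over 3 times the median volume the median pair ratio was 3.799.

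The share of a gene's counts that lay in cells with at least 2 of the other members was 64.2% for Mrc1, 57.3% for C1qb, 50.7% for F13a1, 49.3% for C1qc, 42.6% for Fcer1g, 33.9% for C1qa and 26.4% for Tyrobp. Such cells made up 3.19 to 4.28% of all kept cells. The remaining counts were spread thinly, at a higher level per count in shallow cells. In cells with none of the other members, C1qa fell from 9.51 counts per 10000 panel counts in the shallowest decile (median 15 counts) to 1.75 in the deepest (median 284), C1qc from 9.09 to 1.802 and F13a1 from 23.2 to 5.49. Over these deciles Mrc1 fell from 9.77 to 4.30, Fcer1g from 3.19 to 1.12, C1qb from 2.95 to 1.34 and Tyrobp, which changed least, from 3.23 to 2.12. The mean blank code fell from 3.45 to 1.35 over the same deciles. The part of false reads in the scattered counts was not tested.

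High counts of Mrc1 and F13a1 in a cell came with the other members. At least 10 counts of Mrc1 were found in 692 cells, of which 547 had at least 3 of the 5 core genes (C1qa, C1qb, C1qc, Fcer1g and Tyrobp), and 12 (1.73%) had none. At least 10 counts of F13a1 were found in 701 cells, of which 443 had at least 3 core genes and 59 (8.42%) had none. Both genes reached 10 counts in 378 cells. The highest counts in a cell were 75 for F13a1, 70 for Mrc1, 22 for C1qb, 19 for C1qc, 14 for C1qa, 10 for Fcer1g and 8 for Tyrobp.

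Outside the members, Npl and Lyve1 were among the 3 genes most often found in the same E15.5 cells as each of the 7 members. Npl encodes N-acetylneuraminate pyruvate lyase, an enzyme of sialic acid breakdown, and Lyve1 a hyaluronan receptor of lymphatic vessels and of many perivascular macrophages. Npl led for C1qa, C1qb, C1qc and Tyrobp, with a ratio of 3.70 for C1qb (857 joint cells) and 2.16 for Tyrobp. Lyve1 led for Fcer1g at 3.41, for F13a1 at 2.63 and for Mrc1 at 3.66, where 1767 cells held both. These ratios come from cells of 1 section and share its depth.

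A clustering of the E15.5 cells that used none of the members gave 32 clusters, and all 7 members had their highest level in 1 of them. This was cluster 25, with 1390 cells (0.710% of kept cells), led by Lyve1 at 35.0-fold over the other cells, the selenium carrier Selenop at 15.9-fold and Npl at 14.7-fold. Of its cells 78.8% had at least 3 members and 6.40% had none. The cluster held from 11.4% (Tyrobp) to 41.0% (Mrc1) of a member's counts, so that most counts of each member lay in other clusters. All 7 members were at least 2-fold higher there, against a background of 9.8% of the 296 panel genes, which include the genes that formed the cluster. Per 10000 panel counts, Mrc1 reached 727 (714 to 739, exact Poisson 95% interval), against 1.34 to 36.4 in the other 31 clusters. F13a1 reached 674 (662 to 686) against 2.73 to 33.7. C1qc reached 147 (142 to 153), C1qb 128 (123 to 134), C1qa 77.4 (73.4 to 81.5), Fcer1g 67.1 (63.5 to 71.0) and Tyrobp 41.7 (38.8 to 44.7). The folds over all other cells were 79.2 for Mrc1, 54.1 for F13a1, 46.0 for C1qb, 40.2 for C1qc, 31.7 for Fcer1g, 21.8 for C1qa and 14.7 for Tyrobp. The mean blank code stood at 1.44 per 10000 in this cluster, and its median depth was 115 counts.

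**Figure D2:**
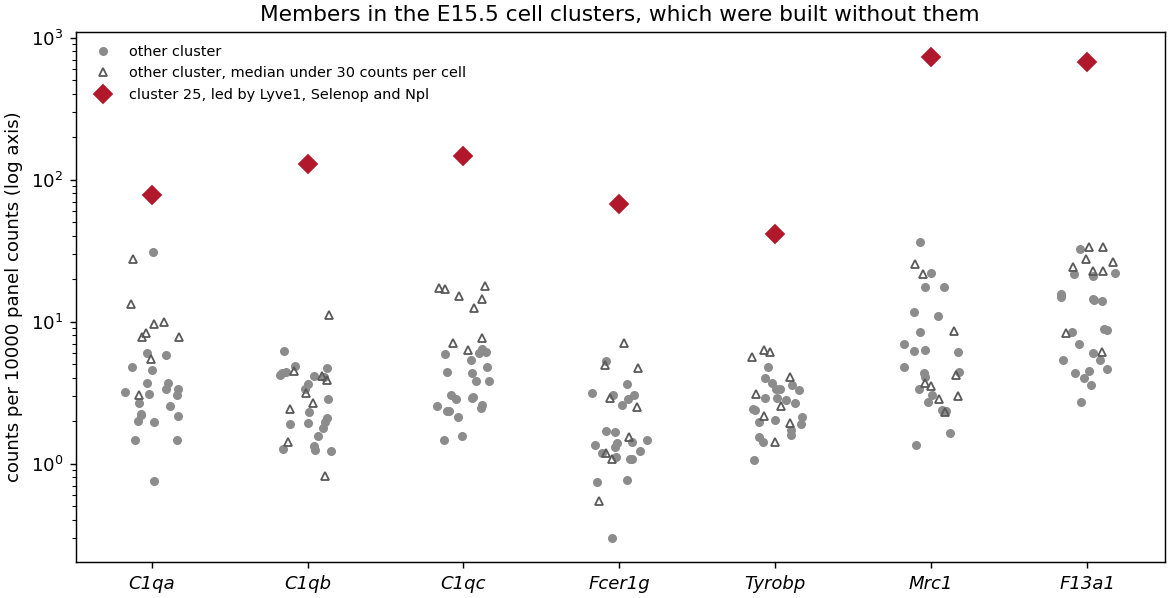
Counts of each member per 10000 panel counts (log axis) in the 32 cell clusters of the E15.5 section, which were built without the members; the diamond is cluster 25, circles are other clusters and triangles other clusters with a median under 30 counts per cell (a value of 0 is drawn at 0.3). Cluster 25 lies above every other cluster for each member, and C1qa comes closest to it elsewhere, at 30.7 in cluster 32.

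Few genes of the lists for other cell types were raised with the members in cluster 25. All 5 neuron genes on the panel, both erythroid genes and the cartilage gene Cytl1 were at least 2-fold lower, with Stmn2 at 0.0544-fold and Car2 at 0.0875-fold. None of the 8 mural or 3 mesenchyme genes reached 2-fold. Of 6 endothelial genes only Etv2 did, at 2.77-fold on 27 counts, while Pecam1 stood at 0.755-fold, Cdh5 at 0.543-fold and Kdr at 0.646-fold. Of 5 lymphatic genes Lyve1 was raised and Prox1, the lymphatic fate factor, stood at 0.564-fold. Of the other scavenger and lectin receptors on the panel, Lyve1 and the fatty acid receptor Cd36 (8.17-fold) were raised, and the liver sinusoidal genes Stab2 and Oit3 were lower at 0.470-fold and 0.368-fold. Of the coagulation genes, Procr stood at 1.17-fold and Vwf at 0.511-fold. These genes took part in the clustering, so their levels in cluster 25 are not independent of it. Among all cells with at least 3 members, which the members chose, some levels differed. Over the other cells Pecam1 stood at 1.11-fold, Cdh5 at 1.36-fold, Kdr at 1.24-fold and Dcn at 1.93-fold. Stmn2 at 0.230-fold and Car2 at 0.191-fold were low there too, and no endothelial, mural or mesenchyme gene reached 2-fold.

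Most cells with at least 3 members lay outside cluster 25: 2477 of 3573, or 69.3%, with a median of 3 members against 5 inside. Of these, 843 lay in cluster 1, led by the collagen-binding proteoglycan Dcn, 376 in cluster 6, led by Pecam1, Aplnr and Cdh5, and 233 each in cluster 8, led by Myh11, and cluster 11, which had Vtn among its leading genes. Over the whole section 759 cells with at least 3 members were expected within depth deciles, 709 of them with exactly 3. How many of the cells outside cluster 25 this covers was not tested. Cluster 11 had the highest Mrc1 level outside cluster 25, at 36.4 per 10000, with F13a1 at 32.3. Among clusters with a median of at least 30 counts per cell, cluster 21, led by the brain endothelial genes Cldn5 and Slco1c1, followed for Mrc1 at 21.8. Its F13a1 stood at 20.97, below the 21.9 of cluster 1 and the 21.7 of cluster 2, led by Car2. Multi-member cells lay close to one another. Their median distance to the next such cell was 16.5 micrometres, 568 of them (15.9%) had another within 8 micrometres, and cells linked over steps of at most 15 micrometres formed 2507 groups. How far counts of a cell were assigned to its neighbour was not tested. Without the 63.2% of kept cells that had any other cell centre within 8 micrometres the median pair ratio was 3.27.

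F13a1 and Mrc1 parted in some clusters. In cluster 9, led by Cytl1 and Cthrc1, F13a1 stood at 15.7 per 10000 and Mrc1 at 2.39. In cluster 5, led by the neuronal genes Tubb2b and Scn3a, F13a1 stood at 8.90 and Mrc1 at 1.64, beside a mean blank code of 1.39. Mrc1 was high without the others in Stab2-positive cells of the region led by Car2 and Stab2. There the 1091 cells with a count of Stab2, a scavenger receptor of sinusoids, held Mrc1 at 66.6 per 10000 against 8.68 in the region's other cells, while the other 6 members had ratios between 0.5496 and 1.14 over the same cells. C1qa stood at 30.7 per 10000 in cluster 32, a group of 108 cells led by Zic1, on 29 counts in all, with C1qb at 4.24 and C1qc at 2.12 and the mean blank code at 3.85. Clusters with a median under 30 counts per cell held C1qc at 6.27 to 17.9, the highest in cluster 18, together with a mean blank code of 2.41 to 7.31.

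The density of multi-member cells at E15.5 varied over the embryo by region. Squares of 200 micrometres with at least 20 cells (860 squares) were grouped into 17 regions by their summed counts of the other genes, and regions are named here by their 2 leading genes. The density was highest in the Scn7a and Vtn region, at 245 cells with at least 3 members per square millimetre (226 to 266, exact Poisson 95% interval). The Hand2 and Rgs4 region followed at 226 (201 to 253), the Fibin and Cytl1 region at 207 (189 to 227) and the Pdlim3 and Gja5 region at 200 (185 to 216), and neighbours in this order overlapped. A lower group held the Myh11 and Gata4 region at 164 (150 to 180), the Car2 and Gata4 region at 162 (133 to 195), the Gata5 and Foxf1 region at 149 (128 to 173) and the Prrx1 and Sfrp2 region at 136 (119 to 156), again with overlapping neighbours. Clear steps followed to the Cytl1 and P4ha3 region at 72.1 (60.0 to 86.0) and from the Wnt4 and Nt5e region at 58.2 (51.6 to 65.4) to the remaining 7, all under 35. Per 1000 cells the order differed, since the regions held from 1908 to 9958 cells per square millimetre. The Wnt4 and Nt5e region, with 2249, then stood at 25.9 (22.9 to 29.1), above the Fibin and Cytl1 region at 22.6 (20.6 to 24.8), with which it overlapped, and the Prrx1 and Sfrp2 region at 18.7 (16.3 to 21.4).

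Among those 7 were the 3 neural regions, those with at least 2 neuron or radial glia genes among their 10 leading genes, a rule set after the values had been seen. Under this rule the Scn7a and Vtn region and the Hand2 and Rgs4 region, the densest at 245 and 226, counted as other regions. Scn7a and Hand2 also led cell clusters 22 and 15, which had the neuron gene Stmn2 among their leading genes. Neural here thus means the 3 regions named next and not all nervous tissue. The Fabp7 and Slc1a3 region held 33.0 per square millimetre (23.3 to 45.5), the Hoxa5 and Meis2 region 16.7 (10.7 to 24.8) and the Tubb2b and Scn3a region 7.89 (5.06 to 11.7). Of the non-neural regions among the 7, the Tbx20 and Gata4 region held 34.4 (23.7 to 48.3) and the Prrx2 and Dkk2 region 30.95 (20.22 to 45.35). Both overlapped the Fabp7 and Slc1a3 region. The Car2 and Stab2 region held 18.1 (14.0 to 22.9) and the lowest, the Myo10 and Gadd45g region, 2.34 (0.483 to 6.85). Median counts per cell in these non-neural regions were 61, 52, 40 and 26, in the order given. In the neural regions they were 65, 84 and 48, in the order given. Low density thus came with low depth in the Car2 and Stab2 and the Myo10 and Gadd45g regions, and depth was also low in some of the others. Over the 3 neural regions together the density was 15.2 (12.1 to 18.8, 85 cells in 5.6 square millimetres), against 121 (117 to 125, 3481 cells in 28.8 square millimetres) in the other 14. The ratio was 7.96 (6.42 to 9.995). Median depth was 62 counts per cell in the neural regions and 90 elsewhere. With every cell thinned to 40 counts, which left out 13773 of 41170 neural and 32724 of 154319 other cells, the densities were 5.89 and 43.5 and the ratio was 7.38 (5.23 to 10.8).

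**Figure D3:**
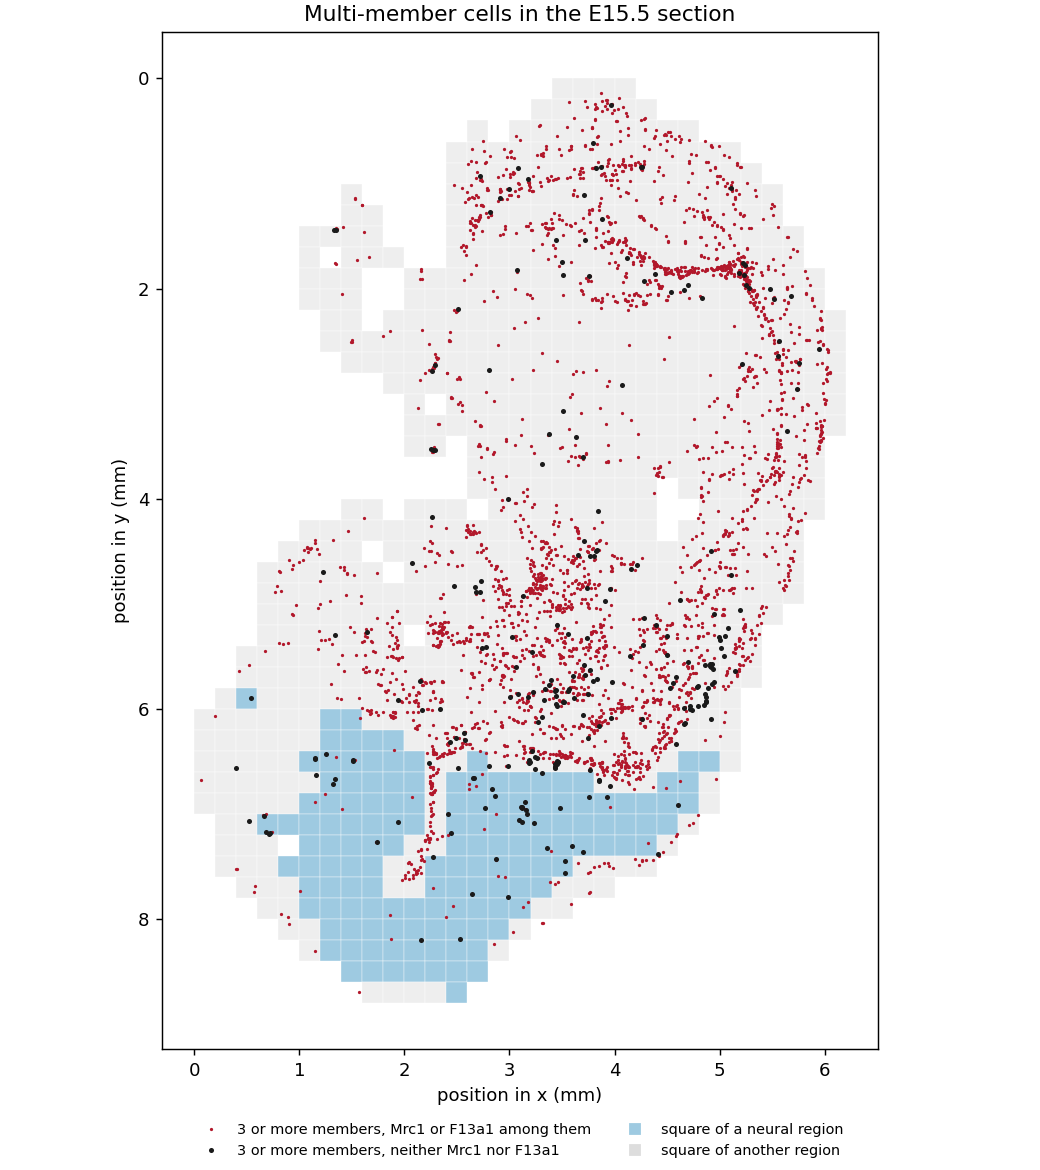
Positions of the 3573 cells with at least 3 members in the E15.5 section (axes in mm); blue squares belong to the 3 neural regions and grey squares to the other regions, red points are cells with Mrc1 or F13a1 among their members and black points cells with neither. Cells are sparse over the blue squares, 85 cells in all, and denser over most grey ones.

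As shares of all counts, members differed in how far they fell in the neural regions. Mrc1 stood at 1.47 per 10000 in the neural regions and 18.15 elsewhere, a ratio of 0.0812 (0.0742 to 0.0886). Fcer1g had a ratio of 0.284, F13a1 of 0.361, C1qb of 0.395, Tyrobp of 0.437 and C1qa of 0.486. C1qc alone was nearly level, at 4.56 against 4.99 and a ratio of 0.913 (0.865 to 0.964). Thus 6 of the 7 were at least 2-fold lower, beside 42.9% of the 296 panel genes, many of which formed the regions. Fewer such cells and less RNA per cell cannot be told apart in such sums. Of the 1584 C1qc counts in the neural regions, 193 lay in cells with at least 3 of the 5 core genes. For F13a1 these were 16 of 2547 and for C1qb 162 of 591. The part of false reads in the remaining counts was not tested.

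The core-positive cells, those with at least 3 of the 5 core genes, allowed Mrc1 and F13a1 to be read in cells chosen without them. There were 59 in the neural regions against 2.42 expected if core genes fell independently within depth deciles, and 1581 elsewhere against 112 expected. In the neural regions 13 of 59 had a count of Mrc1 (22.03%, 12.3 to 34.7%) and 1 of 59 a count of F13a1 (1.69%, 0.0429 to 9.09%). Elsewhere 1269 of 1581 had Mrc1 (80.3%, 78.2 to 82.2%) and 1057 had F13a1 (66.9%, 64.5 to 69.2%). Neither gene was found in 46 of the 59 neural and 206 of the 1581 other core-positive cells. Their median depth was 107 and 141 counts of other genes. In cells with no core gene, Mrc1 was detected in 0.988% of neural and 5.50% of other cells, and F13a1 in 5.61% and 6.996%. The interval for F13a1 in neural core-positive cells (0.0429 to 9.09%) covers the 5.61% of neural cells without a core gene.

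The amounts differed as well. Neural core-positive cells held a mean of 0.644 counts of Mrc1 and 0.271 of F13a1, the latter all 16 from a single cell, against 9.54 and 7.95 elsewhere. For each count of other genes the ratios of neural to other core-positive cells were 0.0934 (0.0661 to 0.128) for Mrc1 and 0.0472 (0.0270 to 0.0766) for F13a1. These intervals treat counts as independent, although 1 cell also held 13 of the 38 neural counts of Mrc1. They therefore do not cover the spread between cells. The core genes themselves, which chose the cells and so are given as a description, stood at means of 2.22 and 1.41 for C1qa, 2.75 and 2.22 for C1qb, 3.27 and 2.42 for C1qc, 0.441 and 1.08 for Fcer1g and 0.797 and 0.789 for Tyrobp, in neural and other core-positive cells in that order. Of the members, C1qc, C1qb and C1qa were thus the most counted in neural core-positive cells, with up to 16 counts of C1qc in a cell. With cells thinned to 40 counts of other genes, 16 neural and 413 other core-positive cells were left, and 2 (12.5%, 1.55 to 38.4%) and 346 (83.8%) of them had Mrc1 or F13a1. The 59 cells come from 1 embryo, and no test between embryos was possible.

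The 3 neural regions gave shares of Mrc1 that overlapped, 33.3% of 15 cells in the Tubb2b and Scn3a region, 25% of 16 cells in the Hoxa5 and Meis2 region and 14.3% of 28 cells in the Fabp7 and Slc1a3 region. The F13a1 shares there were 0, 0 and 3.57%, where 0 of 15 cells allowed a share of up to 21.8% and 0 of 16 cells up to 20.6%. The other regions with at least 40 core-positive cells had Mrc1 in 72.2 to 93.4% of them. F13a1 varied more over these regions. It was found in 38.7% (31.0 to 46.9%) of 155 core-positive cells of the Hand2 and Rgs4 region, where Mrc1 was in 74.8%, in 51.0% of 49 cells of the Cytl1 and P4ha3 region and in 57.3% (50.6 to 63.7%) of 234 cells of the Fibin and Cytl1 region. In the Wnt4 and Nt5e region both genes were in 90.9% (83.4 to 95.8%) of 99 cells, and in the Gata5 and Foxf1 region Mrc1 was in 93.4% and F13a1 in 90.2% of 61 cells. In the Car2 and Stab2 region, 8 of 20 core-positive cells had Mrc1 and 6 had F13a1.

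**Figure D4:**
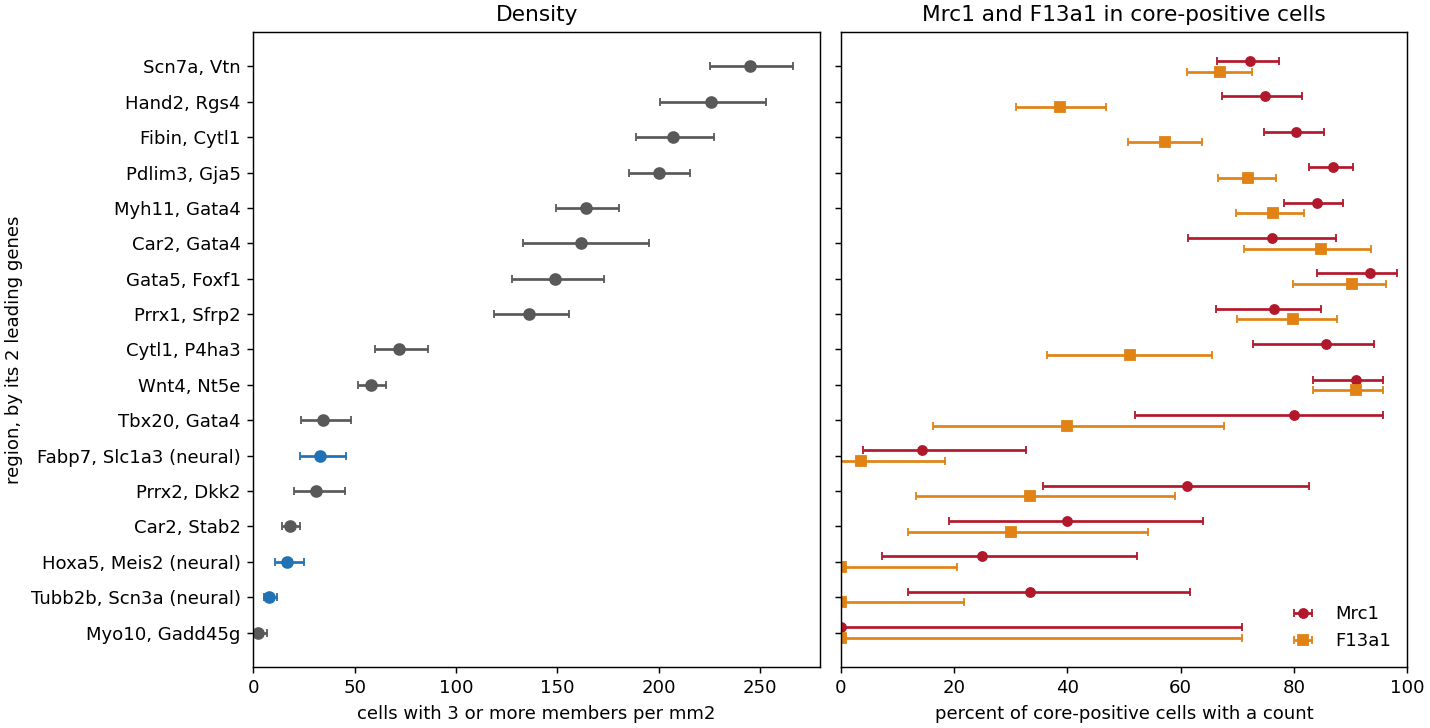
The 17 regions of the E15.5 section, named by their 2 leading genes, with the density of cells that have at least 3 members (left, per square millimetre, exact Poisson 95% intervals) and the percent of core-positive cells with a count of Mrc1 (circles) or F13a1 (squares) (right, exact Clopper-Pearson 95% intervals). The 3 neural regions, in blue, lie at 33.0 and below in density and at 33.3% and below for Mrc1; F13a1 spans 38.7 to 90.9% among regions with at least 40 core-positive cells.

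At E9.5 C1qa, C1qc and Mrc1 were counted above every blank code, and no cell held 5 or more members. In section 1, C1qa was counted 106 times, C1qc 76, Mrc1 97, F13a1 26, Fcer1g 18, C1qb 16 and Tyrobp 7 times. In section 2 the counts were 628, 479, 606, 253, 194, 177 and 64 in the same order. The mean blank code held 16.4 counts in section 1 and 154 in section 2, and the highest 47 and 393. C1qa, C1qc and Mrc1 exceeded all 19 blank codes in both sections, which made 3 of 7 members above the highest blank code, beside 59.5% of the 296 genes in section 1 and 76% in section 2. The mean blank code was exceeded by 5 of 7 members in section 1 and 6 in section 2, beside 86.1% and 92.6% of all genes. C1qa stood at 6.46 times (5.13 to 8.07) the mean blank code in section 1 and 4.07 times (3.73 to 4.44) in section 2, Mrc1 at 5.91 and 3.93 times and C1qc at 4.63 and 3.10 times. F13a1 was at 1.58 and 1.64 times, Fcer1g at 1.10 and 1.26 times and C1qb at 0.974 and 1.15 times, with intervals for C1qb that span 1 in both sections. Tyrobp lay below, at 0.426 times (0.170 to 0.889) and 0.415 times (0.318 to 0.531), and exceeded 6 and 2 of the 19 codes.

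**Figure D5:**
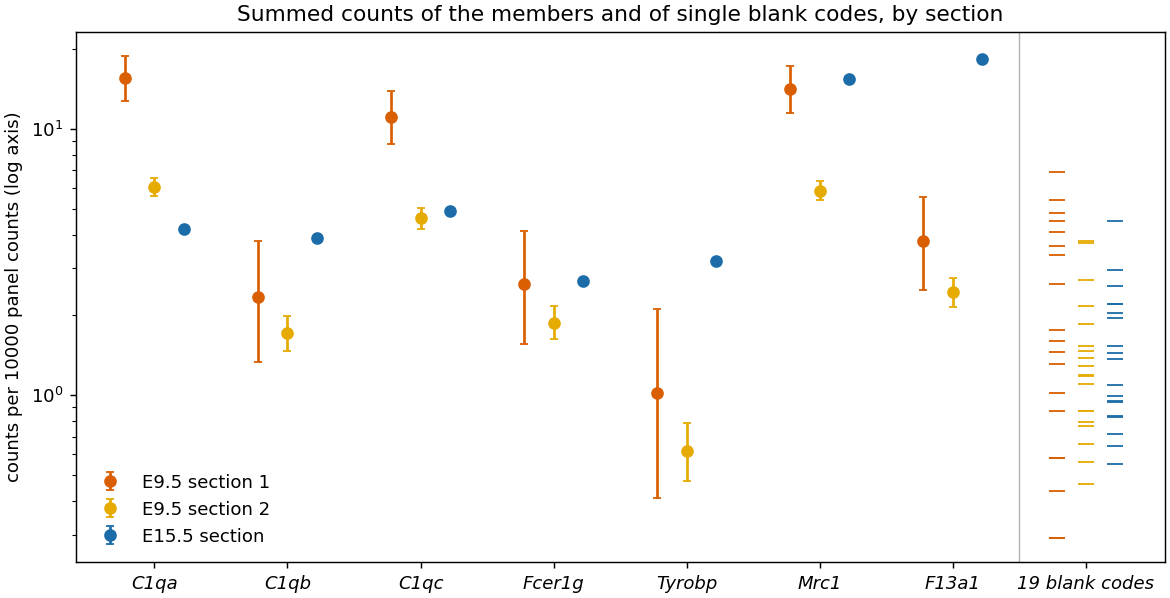
Summed counts of each member per 10000 panel counts (log axis) in kept cells of the 3 sections, with exact Poisson 95% intervals, and the 19 single blank codes of each section at the right. At E9.5 C1qa, C1qc and Mrc1 lie above every blank code of their section, F13a1, Fcer1g and C1qb lie among the codes, and Tyrobp is at 1.02 and 0.619 per 10000, below the mean code.

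The excess of C1qa, C1qc and Mrc1 was larger in the areas of low Gnas. There the Gnas share over the 30 nearest cells was under 50% of the section's 90th percentile. These areas held 64.3% of kept cells in section 1 and 65.2% in section 2. In section 1, C1qa stood at 25.8 per 10000 in them and 4.51 outside, C1qc at 18.7 and 3.005, and Mrc1 at 25.5 and 2.10. In section 2 the values were 9.46 and 1.56 for C1qa, 6.18 and 2.57 for C1qc and 8.04 and 2.95 for Mrc1. The mean blank code was also higher in these areas, at 2.89 against 1.87 in section 1 and 1.76 against 1.14 in section 2. Outside them 0 of 7 members exceeded the highest blank code in section 1 and 1 of 7, Mrc1, in section 2 (131 counts against 122). The mean blank code was still exceeded there by 5 of 7 members in section 1 and 4 in section 2. C1qa, C1qc and Mrc1 were among these in both sections. Tyrobp went the other way in section 2, with 0.338 inside and 0.991 outside. What lowers Gnas there was not tested.

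Joint detection at E9.5 was near what depth gave. In section 2 the 21 pair ratios had a median of 1.15 (0.336 to 1.76), close to the 1.14 of pairs of blank codes, and 0 of 21 reached 2. In section 1 the pairs had at most 14 joint cells, with a median of 1, too few to read. The numbers of cells with at least 3 members were 5 of 830 in section 1 (0.602%, 0.196 to 1.40%) against 3.52 expected, and 36 of 6334 in section 2 (0.568%, 0.398 to 0.786%) against 24.1 expected. No cell had 5 or more members, against 0.595% (0.561 to 0.630%) of cells at E15.5, and 0 of 6334 cells allows a share of up to 0.0582% (exact Clopper-Pearson). Of these, 5 of 5 and 33 of 36 lay in the areas of low Gnas, and 34 of the 36 in section 2 had no member above 2 counts. The exception by amount was 1 cell of section 1 with 15 counts of Mrc1, 3 of C1qa and 1 of F13a1 among 101 counts, 22 of which were Psmd3; it was chosen after its values were seen. In the E9.5 clustering, cluster 11, led by Higd1b and Lyve1, held C1qa at 99.7 per 10000 (128 counts in 273 cells), while C1qb had 0 counts and Mrc1 11. All 273 of these cells lay in areas of low Gnas.

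Between the stages, sums over all kept cells were compared with edgeR's quasi-likelihood test. Tyrobp was the only member called. It held 7 counts (1.02 per 10000) and 64 counts (0.619) in the E9.5 sections and 6752 counts (3.18) at E15.5, higher than in each E9.5 section, and the log2 difference was 2.09 ± 0.70 (SE, edgeR, adjusted p = 0.0304). This was 1 of 7 members higher, beside 9.46% of the 296 genes, and 0 of 7 lower, beside 5.41%; at an unadjusted p under 0.05 edgeR had 2 members higher and 0 lower, beside 38 and 32 of the 296 genes, and DESeq2 called 2 members higher and 0 lower, beside 46 and 46 genes. The call was lost with upper-quartile scaling, where the log2 difference was 2.35 (edgeR adjusted p = 0.225), and without areas of low Gnas, where it was 1.35 and 0 of 296 genes were called (edgeR adjusted p = 0.479). It was also lost after subtraction of the mean blank code (edgeR adjusted p = 0.170), which exceeds Tyrobp in both E9.5 sections, so that the difference then has no interpretable size. F13a1 stood at 3.79 and 2.45 per 10000 in the E9.5 sections and 18.2 at E15.5, with a log2 difference of 2.59 ± 1.01 (edgeR adjusted p = 0.0718; DESeq2 4.94e-05).

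By size alone, Tyrobp and F13a1 were at least 2-fold higher than in each E9.5 section, 2 of 7 members beside 15.9% of all genes. Tyrobp was 3.12 and 5.14 times and F13a1 4.80 and 7.44 times as high as in sections 1 and 2. The other 5 did not pass the test. C1qb was at 2.33, 1.71 and 3.88 per 10000 in section 1, section 2 and E15.5, Fcer1g at 2.62, 1.88 and 2.68, and Mrc1 at 14.1, 5.86 and 15.4. C1qa was at 15.46, 6.07 and 4.20, with a log2 difference of -1.32 ± 1.10, and C1qc at 11.1, 4.63 and 4.92, with -0.63 ± 1.07. Without the areas of low Gnas both turned positive, to 0.50 and 0.73, with C1qb at 1.67, and none of these passed the test. The only spread in the test is that between both E9.5 sections, which may be technical, since no label says that they came from separate embryos. The smallest p of an exact permutation test with 3 sections is 0.333, and imaging run and stage cannot be told apart.

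Of the other genes on the lists, the coagulation genes Vwf and Procr did not pass the stage test, with 0 called by edgeR, 0 at an unadjusted p under 0.05 and 0 by DESeq2. Of 5 other scavenger and lectin receptors, Clec4g rose and 0 fell in edgeR, at 1.02 and 0.561 per 10000 at E9.5, lower than the mean blank code of each section, and 2.58 at E15.5 (log2 difference 1.87, edgeR adjusted p = 0.0389). The list of adaptor-linked receptors had no gene on the panel beside the 2 members.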

How the data were processed

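RNA was counted by MERFISH in 3 sections of wild-type mouse embryos. The authors deposited counts of 296 panel genes and 19 blank codes per segmented cell, as whole numbers, and a second deposited table with each cell's centre and volume, read here as micrometres and cubic micrometres, since per the file headers no unit is given. The volume and position values, unit other, were used as deposited. Scanpy and Seurat are named in the submitters' processing notes without version or role; for the drawing of cells and the reading of codes, settings were "not given in the sources used here", as was any genome build. The panel design of 300 genes includes 4 sequential probes, not analysed here.

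The members and lists were chosen with earlier results of these data known. Cells with at least 10 panel counts were kept. No doublet caller was run, since segmentation sets what counts as a cell. E15.5 cells and, apart from them, E9.5 cells were clustered without the members (log-scaled counts, 30 principal components, 15 nearest neighbours, Leiden resolution 1, igraph 0.11.9), as were the summed counts of 200 micrometre squares. Leading genes are ranked by the fold of their share of counts, with at least 50 counts. Stage was tested on counts summed per section with edgeR 4.0.16 (TMM, summed count at least 30, Benjamini-Hochberg over all genes, called below 0.05, 1 residual degree of freedom); DESeq2 1.42.0 was an alternative. Fold limits used a floor of 3 counts per section. The edgeR fit and the pair ratios were run on simulated data. The simulated stage changes were larger than the difference of any member in the main fit. That run therefore does not show how the test performs at the members' size of difference. Everything else has no test and carries exact 95% intervals (Poisson for counts, Clopper-Pearson for shares). Some items that these rules name are not reported here. Named genes are the 7 members, the 3 genes most often found with each (at least 100 joint cells), list genes a result turns on and the 2 leading genes of each region; other leading genes of clusters were named after their values were seen. Alternatives covered scaling, filters, blank subtraction, cell volume, detection, depth, cell borders, square size and clustering.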

Additional observations from a re-analysis of the deposited data

How the results depend on the processing

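The number of members called between the stages was 1 in the main fit, 0 with upper-quartile factors, 0 after subtraction of the mean blank code, 0 without areas of low Gnas, 2 with DESeq2 and 2 over all cells; the 2 were Tyrobp and F13a1. Of all genes, 28 were called higher and 16 lower in the main fit, 22 and 5 with upper-quartile factors, 15 and 16 after blank subtraction, 0 and 0 without areas of low Gnas, 46 and 46 with DESeq2 and 29 and 16 over all cells. By size alone the members at least 2-fold higher numbered 4 without E9.5 section 1 and 2 without section 2 (range 2 to 4). Without areas of low Gnas the log2 difference was 0.50 for C1qa and 0.73 for C1qc, both negative in the main fit, and without section 1 it was 0.28 for C1qc; leaving out each E9.5 section gave -1.85 to -0.34 for C1qa and -1.14 to 0.28 for C1qc. Against the highest in place of the mean blank code, 3 members lay above it in each E9.5 section, and 0 and 1 with areas of low Gnas also left out, a combination added after the data had been seen; so was a stricter limit for low Gnas (25% of the 90th percentile), which gave 5 members above the mean blank code in each section. The median pair ratio at E15.5 was 28.1 with at least 2 counts, 4.72 without depth strata and 3.27 without cells that have another centre within 8 micrometres. The ratio of other to neural density was 3.58 with at least 2 members, 10.9 per 1000 cells and 5.73 with squares of 100 micrometres. Mrc1 or F13a1 was in 65.7% of other-region cells with at least 2 core genes and in 83.8% after thinning, and in 16.6% and 12.5% of neural ones. The members' summed fold in their leading cluster was 50.9, 53.0 with all genes in the clustering (2111 cells) and 13.1 at a resolution of 0.5, where that cluster held 6206 cells. The cause of these shifts was not tested. No paired analysis was possible because E15.5 has 1 section. Depth limits what can be said of E9.5 section 1 and of regions with medians of 26 and 40 counts per cell.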
